A study of Mus musculus with 4 samples.

Results

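Transcripts of 4 ATP-binding cassette (ABC) efflux pumps of the blood-brain barrier (BBB) were followed through droplet single-cell RNA-seq of mouse brain. The pumps were Abcb1a and Abcb1b, which encode P-glycoprotein, Abcg2, which encodes breast cancer resistance protein, and Abcc4, which encodes multidrug resistance-associated protein 4. They were chosen by symbol and are 4 of 55487 genes in the deposited count matrices. All 4 were detected, and all 4 passed the filter on low counts of the model used below. The study compared young and old mice with and without an endothelial Klf4 deletion, to ask what loss of the transcription factor KLF4 and age do to brain endothelial cells (ECs). There was 1 library for each of 4 groups. Young WT Cre and old WT Cre mice carried the Cdh5-driven Cre alone, and young and old EC-K4KO mice carried it with the floxed Klf4 gene. Mice of either sex were used, and ECs were enriched by sorting or marker-based purification. All mice carried a tamoxifen-inducible Cre whose promoter is active in ECs, control and EC-K4KO mice were given tamoxifen alike, and the number of mice pooled per library was not given in the sources used here.

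ABC efflux pumps use ATP to move their substrates out of the cell. In brain capillaries P-glycoprotein and breast cancer resistance protein sit mainly in the membrane that faces the blood, where they return many lipid-soluble drugs and toxins to the circulation, and multidrug resistance-associated protein 4 exports organic anions and nucleotide analogs. Rodents carry Abcb1a and Abcb1b where humans carry a single ABCB1 gene, and Abcb1a is the form usually described in brain capillaries.

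With 1 library per group, differences between libraries have no replicate check. Intervals given beside levels and ratios are exact 95% intervals that cover counting error only. The libraries held 5324 to 8358 cell barcodes and 30655769 to 88812581 unique molecular identifiers (UMIs, each standing for a captured transcript). Of these, 4146 to 6555 cells per library were kept, and 7 to 42 barcodes were shared by any pair of libraries. The cell type label was brain endothelial cells, but between 38.8% and 60.8% of the kept cells were endothelial-like by their markers, from 1898 to 3302 cells per library. Klf4 went against the genotype label. In endothelial-like cells it stood at 1711 CPM (UMIs of a gene per 1000000 UMIs of the same cells) in the young WT Cre library, 3296 in the young library labelled EC-K4KO, 2104 in the old WT Cre library and 3307 in the old library labelled EC-K4KO. Klf4 was thus higher under the EC-K4KO label (log2 0.83, SE 0.11, edgeR quasi-likelihood adjusted p = 0.0124). Which part of the Klf4 transcript the UMIs came from was not given in the sources used here, and whether the labels or the counted part of the transcript lie behind the difference was not tested. Comparisons of genotype below are comparisons of labels.

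The paralogs Abcb1a and Abcb1b are neighbours, and their likeness bears on how far their counts can be told apart. In GENCODE M21 (GRCm38) Abcb1a (ENSMUSG00000040584.8) lies at chr5:8660077-8748575 and Abcb1b (ENSMUSG00000028970.9) at chr5:8798147-8866315, both on the plus strand and 49.6 kb apart, and the gene Gm5106 overlaps Abcb1b on the other strand. Gm42684 overlaps Abcb1a on the same strand and Gm42686 on the other. Abcg2 (ENSMUSG00000029802.13) lies at chr6:58584523-58695676 on the plus strand, and Abcc4 (ENSMUSG00000032849.14) at chr14:118482692-118706219 on the minus strand. The coding sequences of Abcb1a and Abcb1b were identical at 89.3% of 3802 aligned bases. Near their ends runs a stretch of 120 bases, coding bases 3682 to 3801 of Abcb1a and 3688 to 3807 of Abcb1b, which is shown because it is the kind of sequence a short read could assign to either gene. The 2 bases that differ, of 120, are in capitals.
Abcb1a: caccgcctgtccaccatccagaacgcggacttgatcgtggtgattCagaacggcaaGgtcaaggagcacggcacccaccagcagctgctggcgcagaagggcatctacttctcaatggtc
Abcb1b: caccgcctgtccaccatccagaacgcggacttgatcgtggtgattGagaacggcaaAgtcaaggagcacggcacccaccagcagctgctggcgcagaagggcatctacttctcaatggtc
The stretches were 98.3% identical. Over the whole transcripts, 15.5% of the 50-base windows of Abcb1a and 18.0% of those of Abcb1b were also present in the other gene. Within the last 500 bases the shares were 0% and 3.10%. If the libraries read transcripts from their 3′ end, few reads would be ambiguous. The end that was read was not given in the sources used here, so low Abcb1b values beside high Abcb1a values keep that limit.

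The upstream sequences of the paralogs differ more than their coding sequences and are shown because the genes differed in the cells that held their transcripts. They are the 250 bases before the start in RefSeq (GRCm38.p6), 5′ to 3′ on the plus strand, and come from the 300-base windows chr5:8566841-8567140 for Abcb1a and chr5:8797897-8798196 for Abcb1b. The RefSeq start of Abcb1a lies 93.0 kb upstream of the GENCODE M21 start given above, whereas that of Abcb1b is the GENCODE start, so the windows need not be matching promoters. Capitals mark CACCC, the core of the sites bound by Krüppel-like factors, and GGGCGG, the GC box, on either strand, and the matches do not overlap.
Abcb1a: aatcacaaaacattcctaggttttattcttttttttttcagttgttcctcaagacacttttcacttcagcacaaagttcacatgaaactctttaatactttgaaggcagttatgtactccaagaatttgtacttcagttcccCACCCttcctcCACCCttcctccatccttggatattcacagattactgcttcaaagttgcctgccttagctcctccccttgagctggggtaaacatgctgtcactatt
Abcb1b: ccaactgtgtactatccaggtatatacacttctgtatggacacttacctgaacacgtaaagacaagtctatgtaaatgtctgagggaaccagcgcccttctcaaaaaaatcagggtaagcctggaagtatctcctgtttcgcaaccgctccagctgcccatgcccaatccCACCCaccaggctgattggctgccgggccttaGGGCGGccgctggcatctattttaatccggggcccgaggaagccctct
The Abcb1a window held 2 CACCC matches and no GC box, at 40.3% GC. The Abcb1b window held 1 CACCC match, 1 GC box and 2 CCAAT boxes, at 55.0% GC. The windows aligned over 236 bases with 73.7% identity. Of the 3 listed starts of Abcg2, 2 had a CACCC match and 2 had a GC box, and both listed starts of Abcc4 had a CACCC match. CACCC occurred in 57.5% of 32851 mouse promoter windows of the same length, GGGCGG in 35.7% and CCAAT in 37.4%, so these matches are common and describe the letters only.

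Abcb1a, the main P-glycoprotein gene of rodent brain ECs, had the highest level of the 4 pumps in endothelial-like cells. It stood at 1612 CPM in the young WT Cre library, 1584 in the young library labelled EC-K4KO, 1227 in the old WT Cre library and 1208 in the old library labelled EC-K4KO. Both young libraries were above both old ones. Abcg2 stood at 798, 941, 795 and 823 CPM in the same order. Here the young library labelled EC-K4KO was above the other 3, which lay close together. Abcc4 stood at 176, 190, 146 and 179 CPM in the same order, lowest in the old WT Cre library. Abcb1b stood at 2.12, 2.81, 3.29 and 6.37 CPM, resting on 54, 120, 49 and 68 UMIs, and was highest in the old library labelled EC-K4KO. Per kilobase of exon, the level of Abcb1a was 220 to 294 CPM per kb, that of Abcg2 97.5 to 115, that of Abcc4 22.8 to 29.8 and that of Abcb1b 0.265 to 0.797, so the order of the 4 pumps was the same in every library and their ranges did not overlap. UMIs tag molecules, so the length scaling matters only where longer transcripts give more tags.

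**Figure D1:**
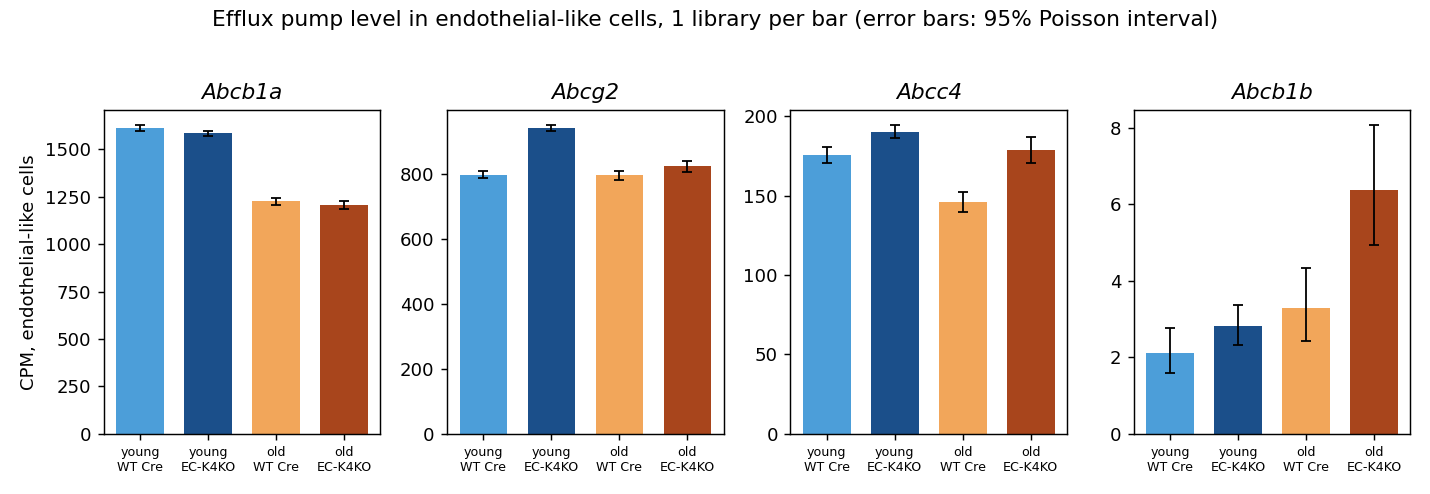
Level of each pump in endothelial-like cells, in CPM, in the 4 libraries, with exact Poisson 95% intervals (counting error only). Abcb1a is at 1612 and 1584 CPM in the young libraries and 1227 and 1208 CPM in the old ones, whereas Abcb1b goes from 2.12 CPM in the young WT Cre library to 6.37 CPM in the old library labelled EC-K4KO.

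Across the 16 cell classes, the pumps followed 2 patterns. Abcb1a, Abcg2 and Abcc4 were highest in endothelial-like cells in the classes with at least 20 cells in every library, 11 of 16. Abcb1b was highest in T or NK-like cells and macrophages, microglia included. Outside the endothelium Abcb1a was lower in every class and library. The highest single values were in the young library labelled EC-K4KO, at 781 CPM in 36 neutrophil-like cells, 690 in 19 oligodendrocyte precursor-like cells and 512 in 6 cells of the granulocyte precursor-like cluster, which held 0 CPM of that class's own markers in this library. The EC gene Cldn5 was at 3203, 3582 and 2292 CPM in the same cells, and these classes are not compared. In T or NK-like cells it stood at 43.8 to 369 CPM, in fibroblast-like cells at 36.8 to 170, in monocyte-like cells at 22.6 to 227, in pericyte-like cells at 11.2 to 24.9, in smooth muscle-like cells at 6.83 to 44.7 and in microglia-like cells at 2.95 to 29.2. The T or NK-like and fibroblast-like ranges lie above the pericyte-like and microglia-like ones, and the other neighbours overlap. Cldn5 stood at 21.9 to 1385 CPM in T or NK-like cells, 179 to 949 in monocyte-like cells and 24.2 to 407 in fibroblast-like cells. Whether this order is that of the cells' own Abcb1a was not tested. Droplets also hold free RNA, and the ratio of Abcb1a to the tight junction gene Cldn5, a gene of ECs, bears on it directly. Relative to the same ratio in endothelial-like cells, it was 1.11 in pericyte-like, 0.941 in smooth muscle-like, 1.27 in microglia-like and 0.933 in astrocyte-like cells over all 4 libraries. In those classes Abcb1a therefore stood to Cldn5 about as it did in ECs, and its UMIs there cannot be told apart from endothelial RNA carried in the droplets. Fibroblast-like cells, at 1.87 times the endothelial ratio, were furthest above it.

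Abcg2 was lower outside the endothelium but did not keep that ratio. It stood at 138 to 247 CPM in fibroblast-like cells, 29.1 to 56.4 in microglia-like cells, 28.8 to 54.7 in pericyte-like cells and 33.2 to 42.7 in smooth muscle-like cells. The first range lies above the other 3, which overlap. Smooth muscle-like values leave out 1 cluster of 592 cells that passed as smooth muscle-like but led with the pericyte markers Rgs5 and Higd1b and none of its own, where Abcg2 was at 49.8 to 87.8 CPM. Relative to Cldn5, Abcg2 was 5.48 times its endothelial ratio in fibroblast-like cells, 7.78 times in microglia-like cells, 4.83 times in pericyte-like cells and 3.02 times in smooth muscle-like cells, and 0.844 times in T or NK-like cells. Abcc4 stood at 13.9 to 26.8 CPM in astrocyte-like cells and 5.75 to 9.96 in pericyte-like cells, which was 5.85 and 4.34 times its endothelial ratio to Cldn5. In choroid plexus-like cells, the epithelium that makes cerebrospinal fluid, Abcc4 was at 21.2 CPM over all libraries, 27.7 times that ratio, though only 2 of 4 libraries held 20 such cells or more. These ratios rest on Cldn5 alone, and the free RNA of the droplets was not measured.

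Abcb1b, the P-glycoprotein paralog that is low in brain capillaries, was highest in 3 immune classes. T or NK-like cells held 26.2, 66.8, 77.0 and 80.3 CPM in the young WT Cre library, the young library labelled EC-K4KO, the old WT Cre library and the old library labelled EC-K4KO. Border macrophage-like cells held 43.2, 42.8, 41.5 and 39.0 CPM in the same order. Microglia-like cells held 22.9, 31.7, 29.7 and 30.001 CPM, on 48 to 221 UMIs. The T or NK-like values rest on 4, 19, 13 and 11 UMIs and the border macrophage-like ones on 18, 36, 21 and 9, so their order cannot be told at this depth. Over all libraries border macrophage-like cells, at 42.1 CPM (33.6 to 52.1), lay above microglia-like cells, at 29.4 CPM (26.9 to 32.0). Monocyte-like cells were at 9.27 to 23.0 CPM, ependymal-like cells at 2.37 to 14.8, astrocyte-like cells at 0 to 11.5 and smooth muscle-like cells at 2.02 to 5.46, and these ranges overlap in part. Neutrophil-like cells were at 0 to 5.14 CPM and oligodendrocyte precursor-like cells at 0 to 19.3, given as values only because of the Cldn5 they held in 1 library. Summed over libraries, Abcb1b was at 3.10 CPM in endothelial-like cells.

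**Figure D2:**
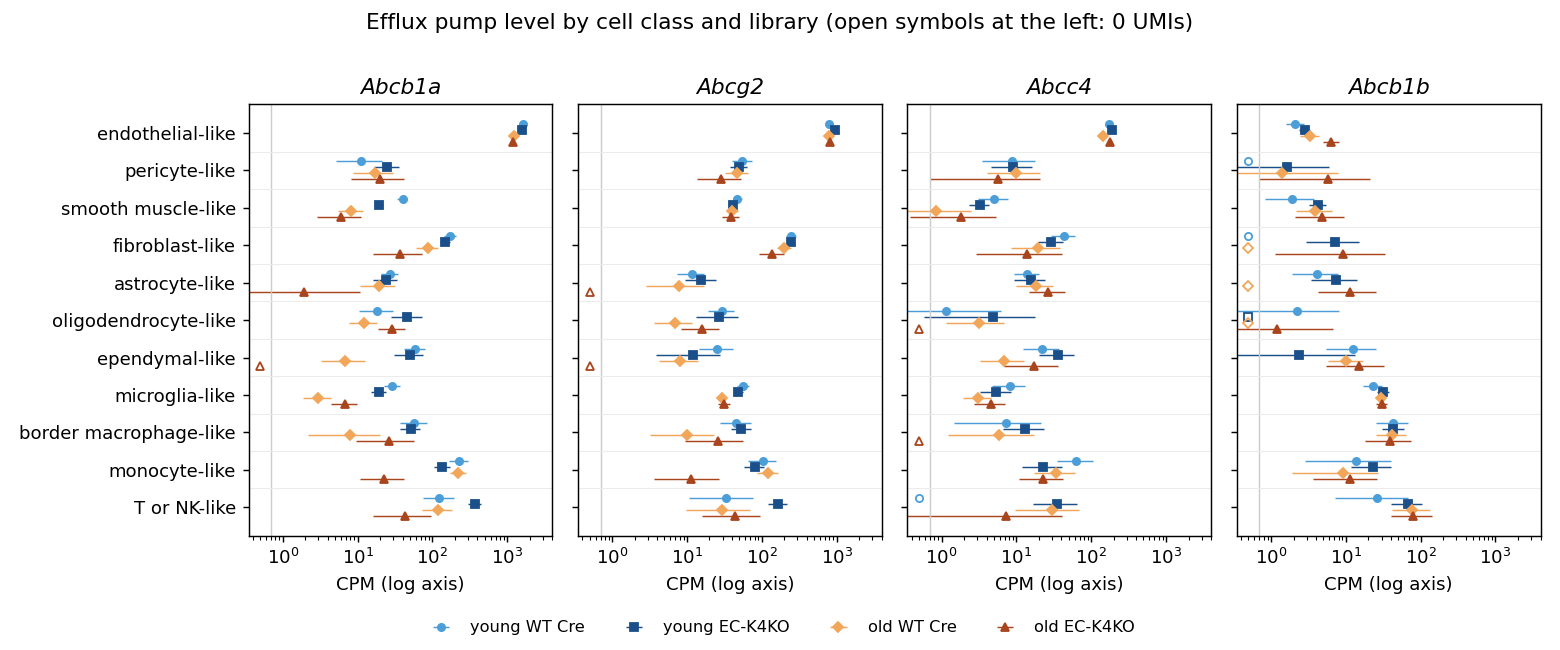
Level of the 4 pumps in CPM on a log axis in the 11 cell classes with at least 20 cells in every library, 1 symbol per library, with open symbols for classes with 0 UMIs; the smooth muscle-like class is drawn with its Rgs5-led cluster included. Abcb1a, Abcg2 and Abcc4 are highest in endothelial-like cells, and Abcb1b is highest in T or NK-like, border macrophage-like and microglia-like cells.

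The genes most like each pump were sought over 35 sums of 15 classes and the 4 libraries. Candidates had to reach a mean of 50 CPM over the endothelial sums. Genes low in endothelial-like cells could therefore not be listed for any pump, Abcb1b included. Of 3405 candidates, Cldn5 (Pearson r = 0.99), Ly6c1 (0.98), Adgrl4 (0.97), Ptprb (0.97) and Tek (0.96) were most like Abcb1a, and Cldn5, Ptprb and the angiopoietin receptor gene Tek are known genes of ECs. For Abcg2 they were Slc7a1 (0.86), Ushbp1 (0.86), Cdh5 (0.86), Ptprb (0.86) and Hspa12b (0.85). For Abcc4 they included Ramp2 (0.88), Nck1 (0.85), Sgms1 (0.85) and Slc16a4 (0.84). For Abcb1b they were Gdi2 (0.78), Tpp2 (0.77), Capza2 (0.77), Cyfip1 (0.74) and the progranulin gene Grn (0.74). Between members, r was 0.84 for Abcb1a and Abcg2 and -0.02 for Abcb1a and Abcb1b. These sums share libraries, and Cldn5, Ly6c1, Tek and Cdh5 also named the endothelial-like class, so the values are a description.

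Most endothelial-like cells held Abcb1a. Thinned to 1000 UMIs per cell, 77.2% of those in the young WT Cre library had an Abcb1a UMI, 77.4% in the young library labelled EC-K4KO, 68.3% in the old WT Cre library and 70.9% in the old library labelled EC-K4KO. Without thinning the shares were 99.3%, 99.2%, 97.1% and 95.7%, at median depths of 6314, 9843, 4665 and 3765 UMIs. In pericyte-like cells, taken as a class without the pump, the thinned shares were 0.962%, 1.78%, 0.461% and 1.56% at median depths of 2394 to 3709 UMIs. Abcg2 was held by 53.9%, 60.2%, 54.4% and 56.3% of thinned endothelial-like cells, and Abcc4 by 15.6%, 17.4%, 14.4% and 15.3%. Abcb1b was held by 0.121% to 0.580% of thinned endothelial-like cells and by 2.68% to 3.26% of thinned microglia-like cells. Abcb1a and Abcg2 occurred together in 41.7%, 47.3%, 37.6% and 41.9% of thinned endothelial-like cells, against 41.6%, 46.6%, 37.2% and 39.9% for the product of their separate shares. Thinned cells with the pumps in pairs were thus close to what unlinked detection gives, with the excess largest in the old library labelled EC-K4KO. Without thinning, 94.9%, 96.8%, 89.8% and 87.6% of endothelial-like cells held both pumps, in the same order of libraries.

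Along the vascular tree, capillary-like and venous-like cells held more Abcb1a, Abcg2 and Abcc4 than arterial-like cells. The capillary-like share of endothelial-like cells was 65.4% to 74.3%, the arterial-like share 20.8% to 24.5% and the venous-like share 4.90% to 11.8%. The venous-like cells were named from venous genes, but the adhesion and chemokine genes Vcam1, Icam1, Sele and Cxcl11 also led their cluster. Abcb1a stood at 1656, 1652, 1343 and 1322 CPM in capillary-like cells and at 1429, 1353, 976 and 934 CPM in arterial-like cells of the young WT Cre library, the young library labelled EC-K4KO, the old WT Cre library and the old library labelled EC-K4KO. The arterial-like value was lower in 4 of 4 libraries (mean log2 -0.37 ± 0.14, SD over 4 libraries). Venous-like cells, at 1312 to 1745 CPM, differed little from capillary-like ones (log2 0.02 ± 0.04, n = 4 libraries).

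Abcg2 showed the widest step between segments among the 3 abundant pumps. It stood at 876, 1035, 984 and 986 CPM in capillary-like cells and at 552, 696, 486 and 520 CPM in arterial-like cells in the same order, so that no arterial-like value reached a capillary-like one (log2 -0.80 ± 0.21, n = 4 libraries). In venous-like cells it was at 831 to 984 CPM. Abcc4 stood at 182, 192, 151 and 186 CPM in capillary-like cells and at 162, 169, 130 and 149 CPM in arterial-like cells, lower in 4 of 4 libraries (log2 -0.22 ± 0.07) though the ranges overlap between libraries. Where each cell was placed by its own marker UMIs in place of its cluster, the steps from capillary to arterial were -0.71 for Abcb1a, -1.21 for Abcg2 and -0.39 for Abcc4 on the log2 scale. Cells of the arterial-like clusters had a higher median depth, 8187 UMIs against 5203 in capillary-like cells over all libraries, and its part in the steps was not tested.

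Abcb1b ran the other way. In arterial-like cells it stood at 4.39, 5.88, 6.37 and 12.7 CPM, on 28, 63, 30 and 39 UMIs, in the order of libraries used above. In capillary-like cells it stood at 1.36, 1.18, 1.27 and 1.66 CPM, on 21, 29, 9 and 8 UMIs. Every arterial-like value was above every capillary-like one (mean log2 2.31 ± 0.51, SD over 4 libraries). Venous-like cells held 1.35, 3.75, 3.20 and 7.53 CPM, above capillary-like cells in 3 of 4 libraries. Markers of other classes were also higher in arterial-like sums than in all endothelial-like cells. Astrocyte markers stood at 438 to 839 CPM against 195 to 316, smooth muscle markers at 224 to 517 against 101 to 217 and pericyte markers at 133 to 473 against 54.9 to 175. Abcb1b in astrocyte-like cells was 0 to 11.5 CPM and in pericyte-like cells 0 to 5.75, and Abcb1b in smooth muscle-like cells themselves was 2.02 to 5.46 CPM.

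Outside the named segments, an unnamed cluster of 85 cells led by Plvap, the gene of the diaphragms of fenestrated vessels, held 7 of 8 endothelial markers and low pump levels. Its range was 88.9 to 215 CPM for Abcb1a, 229 to 411 for Abcg2 and 51.2 to 122 for Abcc4. Each was below the lowest capillary-like, arterial-like or venous-like value of that gene. Abcb1b was at 0 to 4.21 CPM there. Of the 4 libraries, 3 held 20 such cells or more, and 88.9 and 411 CPM are the values of the old library labelled EC-K4KO.

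**Figure D3:**
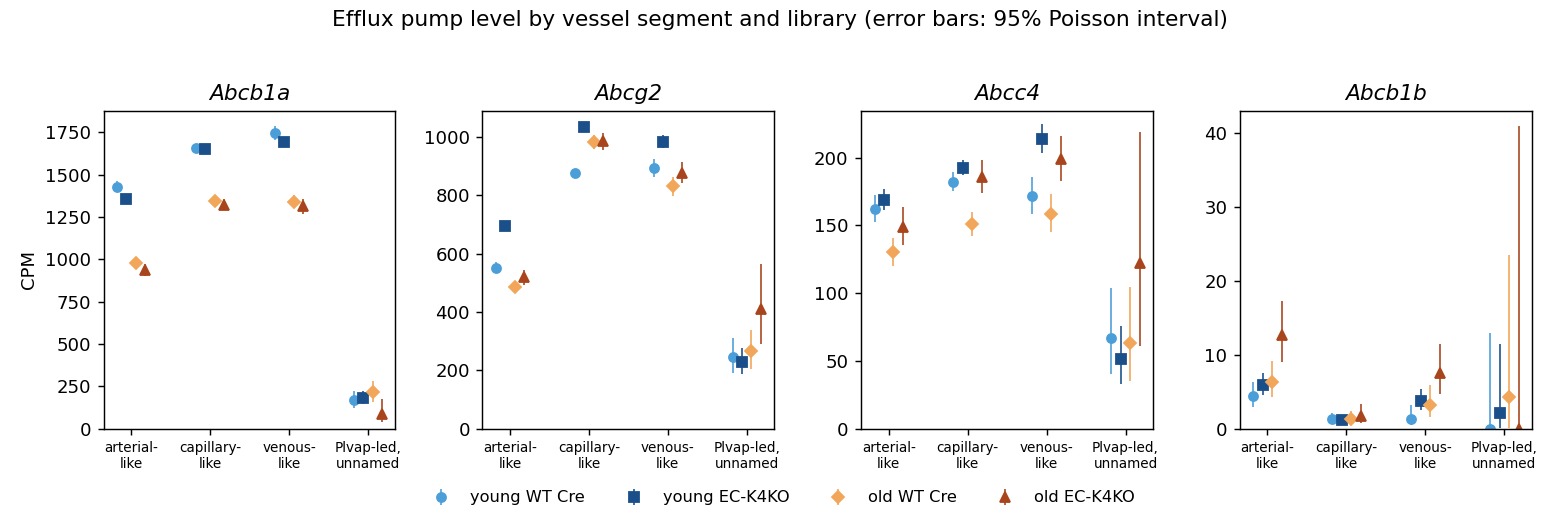
Pump levels in CPM by vessel segment of endothelial-like cells, 1 symbol per library. Abcg2 lies at 876 to 1035 CPM in capillary-like cells and 486 to 696 CPM in arterial-like cells, whereas Abcb1b lies at 1.18 to 1.66 CPM and 4.39 to 12.7 CPM.

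With age, Abcb1a was lower in endothelial-like cells under both genotype labels. The old over young log2 ratio of CPM was -0.39 (95% interval -0.42 to -0.37) in WT Cre and -0.39 (-0.42 to -0.36) under the EC-K4KO label. The median of genes at 10 CPM or more was itself -0.19 and -0.15, and after scaling by TMM, which sets most genes level, the ratios were -0.23 and -0.26. In the additive model of age and genotype label over the 4 endothelial sums (edgeR quasi-likelihood test, 2 libraries against 2 with 1 residual degree of freedom, so that the spread is borrowed across genes), the age term was -0.24 (SE 0.090, adjusted p = 0.0939). Abcb1a thus missed the threshold of 0.05, and passed it in arterial-like cells alone (-0.38, adjusted p = 0.0425), but not in capillary-like (-0.17, adjusted p = 0.198) or venous-like cells alone (-0.20, adjusted p = 0.355), and it passed with no filter on low counts (-0.28, adjusted p = 0.0228). Abcb1a per 100 Cldn5 UMIs was 24.1, 25.3, 26.8 and 27.9, and the level of Cldn5 was itself lower in the old libraries.

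Abcb1b rose with age in that model. The old over young log2 ratio was 0.64 (0.05 to 1.22) in WT Cre and 1.18 (0.73 to 1.62) under the EC-K4KO label, and the age term was 1.08 (SE 0.25, edgeR adjusted p = 0.0197). It was the only one of the 4 pumps past the threshold, while 18.3% of the 14824 genes tested passed it, 11.1% higher and 7.17% lower in old libraries. At an unadjusted p under 0.05, 2 of 4 pumps (Abcb1a and Abcb1b) passed, against 34.1% of all genes. By DESeq2's Wald test the same change of 1.08 had an adjusted p of 0.169. Within capillary-like cells the age term was 0.32 (adjusted p = 0.683), within arterial-like cells 1.01 (adjusted p = 0.0602) and within venous-like cells 1.23 (adjusted p = 0.0927), and in capillary-like cells of WT Cre mice the ratio was -0.06. The shares of venous-like cells were also higher in old libraries, at 4.90% and 7.81% in the young and 8.66% and 11.8% in the old. Arterial-like shares were 20.8% and 22.0% in the young and 24.5% and 22.8% in the old. Capillary-like shares were 74.3% and 70.2% in the young and 66.9% and 65.4% in the old. The sums weight cells by their UMIs, and the venous-like cluster had a median of 16286 UMIs per cell. What these shares add to the age term was not tested.

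Markers of other Abcb1b-holding classes were looked for in the endothelial sums. Microglia markers summed to 49.0 to 52.6 CPM against 10636 to 19829 CPM in microglia-like cells, without an order by age. Border macrophage markers summed to 10.5, 13.6, 24.5 and 29.9 CPM, higher in the old libraries, against 6728 to 8128 CPM in their own class, and T or NK markers to 0.445 to 1.14 CPM. Neutrophil markers stood at 7.26, 6.98, 10.2 and 149 CPM, far higher in the old library labelled EC-K4KO. Scaled by these marker levels, 7 other classes (microglia, border macrophage, T or NK, monocyte, neutrophil, smooth muscle with its Rgs5-led cluster, and astrocyte-like) together would bring 0.194, 0.263, 0.321 and 0.485 CPM of Abcb1b, against the 2.12, 2.81, 3.29 and 6.37 CPM measured. For arterial-like cells the same sums were 0.251, 0.391, 0.406 and 0.685 CPM, against 4.39 to 12.7 CPM measured. The largest single term was that of astrocyte-like cells in the old library labelled EC-K4KO, at 0.374 CPM. The astrocyte-like term was 0 in the old WT Cre library. These sums assume that Abcb1b and marker RNA were carried over in proportion. Pericyte-like, ependymal-like and oligodendrocyte precursor-like cells, among others, were left out, and free RNA in the droplets was not measured. Whether carried-over RNA lies behind any of the endothelial Abcb1b was not tested.

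Abcg2 and Abcc4 showed no change with age that passed the test. For Abcg2 the ratio was -0.01 in WT Cre and -0.19 under the EC-K4KO label, with an age term of 0.05 (SE 0.092, adjusted p = 0.746). Scaling by TMM gave ratios of 0.16 and -0.06, so no direction is given for Abcg2. Leaving out either WT Cre library gave the same -0.06, since that value is the TMM-scaled ratio of the remaining pair. For Abcc4 the ratios were -0.27 and -0.09 and the age term -0.03 (SE 0.075, adjusted p = 0.803), and scaling by TMM turned the latter ratio to 0.04. Within segments the Abcg2 ratio in WT Cre was 0.17 in capillary-like, -0.18 in arterial-like and -0.11 in venous-like cells.

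**Figure D4:**
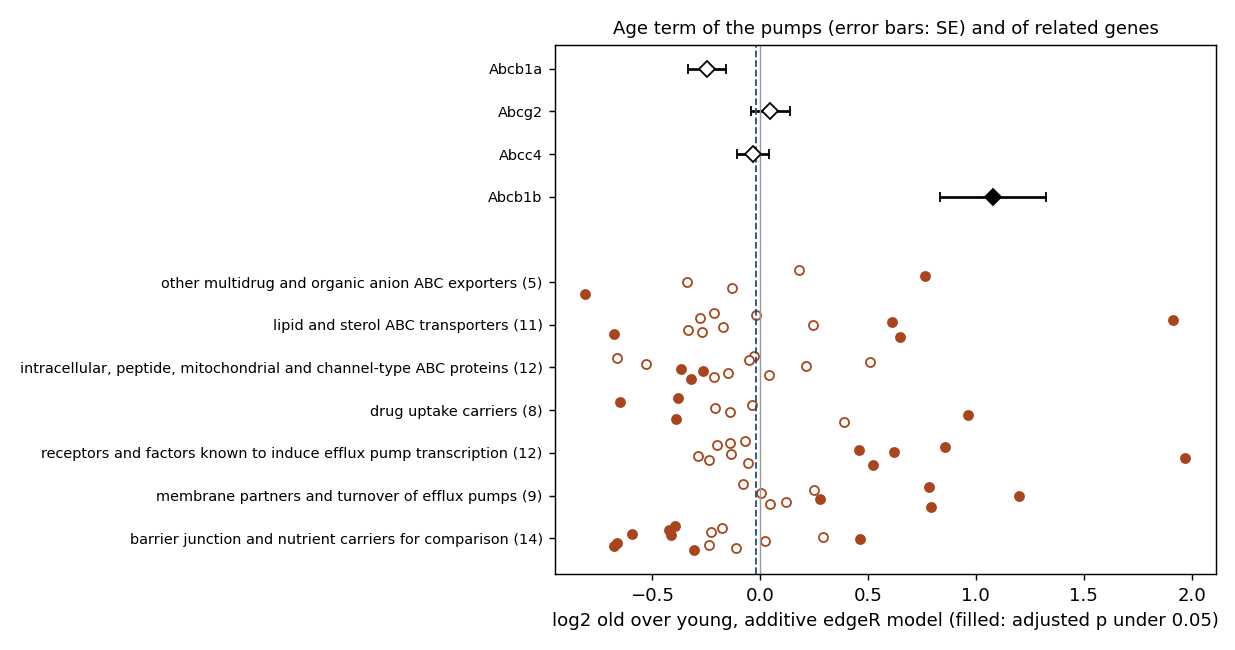
Age term of the additive edgeR model (log2, old over young) with its SE for the 4 pumps, and without error bars for the tested genes of 7 lists, filled where the adjusted p is under 0.05, with a dashed line at the median of all genes tested. Abcb1b is at 1.08 and filled, and Abcb1a at -0.24 is not.

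Between genotype labels, no pump passed the test. The ratio of the library labelled EC-K4KO to the WT Cre library was -0.03 in young and -0.02 in old mice for Abcb1a, 0.24 (0.21 to 0.26) and 0.05 for Abcg2, 0.12 and 0.29 for Abcc4, and 0.40 (-0.07 to 0.90) and 0.95 (0.40 to 1.51) for Abcb1b. The genotype-label terms were 0.01 (adjusted p = 0.992) for Abcb1a, 0.17 (0.535) for Abcg2, 0.23 (0.247) for Abcc4 and 0.70 (0.297) for Abcb1b. The count was 0 of 4 by edgeR and by DESeq2, against 1.67% of all genes tested by edgeR, 0.938% higher and 0.729% lower under the EC-K4KO label. By edgeR 2 of 4 (Abcb1b and Abcc4) had an unadjusted edgeR p under 0.05, against 11.6% of all genes. Since Klf4 was higher under the EC-K4KO label, for a reason not tested, these values are not read as a direction for a loss of Klf4. Whether age and genotype label combine could not be tested with 1 library per group.

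The lists below are read against the shares of all genes tested, 11.1% higher and 7.17% lower with age and 1.67% called for the genotype label. The counts are by edgeR unless DESeq2 is named. Of 9 other multidrug and organic anion exporters, 5 were tested, and with age Abcc1 rose (0.77, adjusted p = 0.0107) and Abcc6 fell (-0.81, adjusted p = 0.00538), with a median of -0.13 beside -0.017 over all genes. Neither was called by DESeq2's Wald test. Of 21 lipid and sterol transporters, 11 were tested, 3 rose and 1 fell (median -0.17), against 11.1% and 7.17% of all genes, and DESeq2 called 2 higher and 0 lower. Abca4, known for retinoid transport, went from 2.63 and 3.26 CPM in young to 8.72 and 11.3 CPM in old libraries (1.91, adjusted p = 0.000323), Abca5 rose by 0.61 and Abcg3 by 0.65, and the cholesterol exporter Abcg1 fell (-0.67). Of 14 intracellular, peptide and channel-type members, 12 were tested and 3 fell (median -0.18), against 7.17% of all genes, and DESeq2 called 0. The 3 were Tap2, a subunit of the peptide transporter of antigen presentation (-0.32), Abce1 (-0.37) and Abcf1 (-0.26). With 1.67% of all genes called for the genotype label, the absence of such a call in these short lists shows nothing about them.

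Of 10 uptake carriers, which bring drugs and organic anions into the cell, 8 were tested, 3 fell and 1 rose with age (median -0.17), against 7.17% and 11.1% of all genes, and DESeq2 called 1 lower and 0 higher. The organic anion carriers Slc22a8 (-0.38) and Slco2b1 (-0.39) and the nucleoside carrier Slc29a1 (-0.65) fell with age, and the prostaglandin carrier Slco2a1 passed as higher (0.96, adjusted p = 0.0466). At 6.51, 2.76, 7.58 and 7.77 CPM in the young WT Cre, young EC-K4KO-labelled, old WT Cre and old EC-K4KO-labelled libraries, that call rests on the low young EC-K4KO-labelled library. Slco2b1 was higher (0.40, adjusted p = 0.0317) and Slc29a4 lower (-1.18, adjusted p = 0.0409) under the EC-K4KO label by edgeR, and DESeq2 called 0 of the carriers for that label.

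Of 15 receptors and factors known to induce efflux pump transcription, 12 were tested and 5 rose with age, with none lower (median -0.06), against 11.1% higher over all genes, and DESeq2 called 3 higher. The oxidative stress factor gene Nfe2l2 went from 122 and 129 CPM to 162 and 187 CPM (0.62, adjusted p = 0.000862). Hif1a of the hypoxia response rose by 0.46, Tcf7l2 of the Wnt pathway by 0.52 and the estrogen receptor gene Esr1 by 0.86, and Pparg, at no more than 1.40 CPM, by 1.97. The drug-sensing receptor gene Nr1i2 was near 0 UMIs and was not tested. Of 9 genes for membrane partners and turnover of the pumps, all 9 were tested and 4 rose (median 0.25), against 11.1% of all genes, and DESeq2 called 3 higher. They were Pim1 (1.20), a kinase known to stabilize breast cancer resistance protein, Slc9a3r1 (0.79), a scaffold protein gene, Ezr (0.78), which links membrane proteins to actin, and Rab11a (0.28), of the recycling endosome. Ezr was also higher under the EC-K4KO label (0.83, adjusted p = 0.00276), where Klf4 was higher too.

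Among 14 genes of barrier junctions and nutrient carriers, 7 fell with age and 1 rose (median -0.27), against 7.17% and 11.1% of all genes, and DESeq2 called 6 lower and 0 higher. Cldn5 went from 6678 and 6270 CPM in young to 4575 and 4334 CPM in old libraries (-0.39, adjusted p = 0.0409). The junction scaffold gene Tjp1 (-0.30), the amino acid carrier gene Slc7a5 (-0.67), the monocarboxylate carrier gene Slc16a1 (-0.59), the lipid carrier gene Mfsd2a (-0.42) and the iron exporter gene Slc40a1 (-0.66) were among them. Slc38a5 passed as higher with age (0.46, adjusted p = 0.0498), but stood at 166, 276, 258 and 275 CPM in the young WT Cre, young EC-K4KO-labelled, old WT Cre and old EC-K4KO-labelled libraries, so that the call rests on the low young WT Cre library. Slc16a1 was lower under the EC-K4KO label (-0.49, adjusted p = 0.0286). Cldn5, Slc7a5, Slc16a1, Mfsd2a and Slc38a5 also served as markers of endothelial-like cells or their segments, and the segments differed in share between libraries.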

How the data were processed

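Single-cell RNA-seq of mouse brain cells enriched for endothelial cells was used, 1 library per group, grouped by the labels. The authors deposited raw UMI counts per gene and cell barcode, for which the file headers name Cell Ranger 6.0.2, with mm10/GRCm38 as the build in the submitters' processing notes, which also name Seurat. Capture chemistry was not given in the sources used here.

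Barcodes below 500 genes or 1000 UMIs, or above 10% mitochondrial UMIs, were dropped. The highest Scrublet scores, 0.8% of cells for each 1000 cells in a library, were then removed as likely doublets. Cells were clustered together (Scanpy 1.11.5, 2000 variable genes without the pumps, the listed genes of the study, Klf4, mitochondrial and sex-linked genes, 30 components, Leiden resolution 1, 34 clusters). A cluster was named from fixed markers where at least 3 markers and 50% of a list reached 25% of the highest cluster and 20 CPM, with no other lineage and a marker among its 20 leading genes. That scoring rule was set after the clusters were seen, the names are rebuilt ones, and differences from the study may come from that. Leaving an Rgs5-led cluster out of the smooth muscle-like class was chosen after seeing the data. Counts were summed per class and library, and CPM were computed with exact Poisson intervals. Log2 ratios of CPM had 0.5 UMI added and an exact conditional binomial interval. Shares used cells thinned to 1000 UMIs, and shallower cells were left out. Endothelial sums were tested in R 4.3.3 with edgeR 4.0.16 (TMM, filterByExpr, quasi-likelihood test, age plus genotype label, Benjamini-Hochberg adjustment over 14824 genes). DESeq2 1.42.0, other scalings, filters and cell definitions were alternatives. Nothing says whether the mice of a library were pooled. With 1 library per group, the p-values rest on departures from the additive model, with 1 residual degree of freedom and spread borrowed across genes. They do not measure spread between replicate libraries or mice. Named genes were the 4 pumps, the 5 genes most like each over classes (at a mean of 50 CPM or more over the endothelial sums), and of each list the members past the threshold, or the 4 with the highest mean CPM where more passed. Pparg, Nr1i2, Slc29a4, Mfsd2a, Slc38a5 and Slc40a1 were named beyond that rule, after their values were seen, and some genes that the rule or the lists cover are not reported here. Members and lists were chosen with earlier results of these data known.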

Additional observations from a re-analysis of the deposited data

Results flagged for a closer look

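In microglia-like cells the Abcb1a log2 ratio between genotype labels was -0.60 in young and 1.18 in old libraries, so it moved in opposite directions at the 2 ages. The difference was not tested, and Abcb1a stood to Cldn5 in these cells at 0.902 to 1.40 times the endothelial ratio. In capillary-like cells the old over young log2 ratio of Abcg2 was 0.17 in WT Cre and -0.070 under the EC-K4KO label. That difference was not tested either.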

How the results depend on the processing

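The age call of Abcb1b was lost in capillary-like cells only (0.32), arterial-like cells only (1.01), venous-like cells only (1.23) and DESeq2's Wald test (1.08), and Abcb1a passed the threshold without the low-count filter (-0.28) and in arterial-like cells only (-0.38). Leaving out each library in turn leaves the TMM-scaled ratio of the remaining pair, with no test, so these values repeat the ratios between libraries. The age terms were then -0.26 to -0.23 for Abcb1a, 0.80 to 1.32 for Abcb1b, -0.060 to 0.16 for Abcg2 and -0.10 to 0.04 for Abcc4. The genotype-label terms were -0.01 to 0.02, 0.45 to 0.96, 0.065 to 0.28 and 0.16 to 0.31. Abcb1b was lowest with age without either library labelled EC-K4KO (0.80). Genes called for age numbered 2709, against 1198 in capillary-like, 1180 in arterial-like and 1028 in venous-like cells only and 1019 by DESeq2. For the genotype label they numbered 247, against 48, 113, 38 and 119 in the same order, 750 without the low-count filter and 413 with the stricter cell filter. Placing each cell by its own markers moved the arterial over capillary steps to -0.71 (Abcb1a), -1.21 (Abcg2) and -0.39 (Abcc4). Mean shares of endothelial-like cells with a UMI were 73.5% (Abcb1a), 0.297% (Abcb1b), 56.2% (Abcg2) and 15.7% (Abcc4) at 1000 UMIs, 91.4%, 0.637%, 79.0% and 28.8% at 2000 UMIs, and 97.8%, 2.53%, 93.8% and 61.7% without thinning. Of the alternatives for ratios between libraries, 143 stayed within the counting interval of the ratio and 44 moved out of it. A further 5 turned the sign of a ratio whose interval left out 0. In all 11 turned sign, 5 of them for ratios whose interval left out 0 and 6 for ratios whose interval held 0 (Abcg2 with age in WT Cre, -0.01, to between 0.0026 and 0.18 in 5 settings, and Abcb1b for the young label, 0.40, to -0.21 in capillary-like cells). Of the 5, the young genotype-label ratio of Abcb1a became 0.020 by TMM and 0.028 by size factors, the WT Cre age ratio of Abcb1b became -0.057 in capillary-like cells, and the age ratio of Abcc4 under the EC-K4KO label became 0.041 by TMM and 0.053 by size factors. The segment-only and whole-cluster alternatives beyond capillary-like cells were chosen after seeing the data. The cause of these changes was not tested. Abcb1b rests on 49 to 120 endothelial UMIs per library, which limits its ratios. No paired analysis was possible because the groups share a single replicate number.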
